A study of Danio rerio with 7 samples.

Results

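Cathepsins, the proteases of the lysosome, were read on 10 probes for 8 genes, which were followed through 3 stages of zebrafish development after injection of a tbx5 morpholino (tbx5-MO). They were chosen by their names in the authors' lists of probes that were at least 1.5-fold lower in morphants throughout a stage, 1 of 3372 listed probes at 24 h post-fertilization (hpf), 1 of 2951 at 30 hpf and 8 of 916 at 48 hpf. The list values thus selected each probe at its own stage, and the gene that stands in front, ctsc, was selected for being higher in morphants at 30 hpf and lower at 48 hpf. These values are given as a description, with no test. The 8 genes stood among 3794 named through these lists. Each of the 10 probes matched 1 of the 43663 rows of the value table, so that it could be read on all 7 arrays. RNA of whole tbx5-MO embryos in Cy5 was hybridised against RNA of control WT embryos in Cy3, both of the AB strain and of the same age, and the 3 stages had 2, 2 and 3 arrays in order of age. The dyes were never swapped, so dye and morpholino cannot be told apart, and no arrays of mismatch-MO embryos were analysed here. Every value below is a log2 ratio of morphant over WT, 0 being no difference, and in whole embryos fewer cells of a type and less RNA per cell cannot be told apart. Whether separate pools of embryos stood behind the arrays of 1 stage is not stated, so errors and p-values cover the spread between arrays, which may be technical.

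Cathepsins are proteases that digest proteins in lysosomes. They are made as inactive proenzymes and are activated by cleavage in the acid lysosome, and cystatins inhibit those that use a cysteine. Cathepsins B, C, H, L and S use a cysteine, cathepsin D an aspartate and cathepsin A a serine. In embryos they occur in nearly all cells and are rich in macrophages and in tissues that take up or digest yolk.

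Cathepsin C, encoded by ctsc, is a dipeptidyl peptidase that in mammals activates the granule proteases of immune cells. It has 2 probes, both on chromosome 15 of the build used by the array annotation, which is not named in the sources used here. Probe A_15_P110747 lay at chr15:43210525-43216900 on the plus strand, a span of 6376 bases, and probe A_15_P115439 lay at chr15:43220684-43220743 on the same strand, 3784 bases further on. Both were annotated to the same transcript, and the annotation did not say which exon or UTR they touch.

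At 24 hpf A_15_P110747 read 0.08 and 0.10, and A_15_P115439 read 0.85 and 0.67. All 4 values were above 0, but the former probe was close to 0 while the latter was at least 1.5-fold higher on both arrays. The values of A_15_P110747 at 24 hpf were shared with other probes, 26 probes holding the value on replicate 1 and 34 on replicate 2, whereas all its values at 30 and 48 hpf, and all those of A_15_P115439, were found on 1 probe only. Neither passed the test at 24 hpf, which the choice of ctsc had not used. The mean was 0.09 ± 0.01 (SD, n = 2) for A_15_P110747 (limma adjusted p = 0.964) and 0.76 ± 0.12 (SD, n = 2) for A_15_P115439 (limma adjusted p = 0.459).

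At 30 hpf A_15_P110747 read 2.91 and 3.17, and A_15_P115439 read 1.62 and 2.58. All 4 values were well above those at 24 hpf, and between 96.1% and 98.7% of the probes of an array lay below them. The means were 3.04 ± 0.19 (SD, n = 2), an 8.23-fold higher level in morphants, and 2.10 ± 0.67 (SD, n = 2), a 4.28-fold higher level.

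At 48 hpf A_15_P110747 read -1.83, -1.02 and -2.91, and A_15_P115439 read -2.50, -2.58 and -2.84. All 6 values were below 0, and the 3 arrays lay closer together on A_15_P115439. For that probe only 0.131% to 0.447% of the probes of an array were lower, and for A_15_P110747 the share ran from 0.101% on replicate 3 to 7.95% on replicate 2. The means were -1.92 ± 0.95 (SD, n = 3), a 3.79-fold lower level, and -2.64 ± 0.18 (SD, n = 3), a 6.23-fold lower level.

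**Figure D1:**
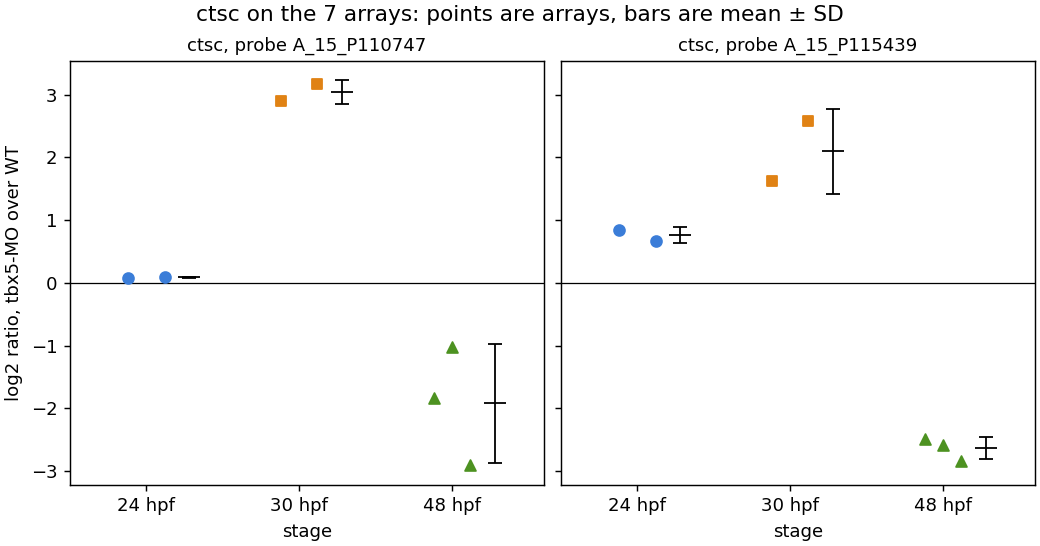
Log2 ratios (tbx5-MO over WT) of the 2 ctsc probes at 24, 30 and 48 hpf, with 1 point per array and bars for mean ± SD (n = 2, 2 and 3). Both probes lie above 0 at 24 and 30 hpf, highest at 30 hpf (1.62 to 3.17), and below 0 on all 3 arrays at 48 hpf (-1.02 to -2.91).

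The order of the stages was therefore the same for both probes, 30 hpf highest, then 24 hpf, then 48 hpf. Arrays of different stages did not overlap on either probe. The choice of ctsc fixed this between 30 and 48 hpf, and the share of all probes without such overlap is not given here. The difference of 48 minus 30 hpf was -4.96 for A_15_P110747, or 31.2-fold, and -4.74 for A_15_P115439, or 26.7-fold. The lowest 30 hpf array stood 3.93 and 4.12 above the highest 48 hpf array. Only 44 and 58 of the 43663 probes had a lower difference of 48 minus 30 hpf, and 3 and 5 of the 3085 probes whose values were found on no other probe on the 5 arrays. Among the probes that all 48 hpf arrays put at least 1.5-fold lower, which were 913 of the table (2.09%), A_15_P115439 ranked 6 from the lowest by its mean at that stage and A_15_P110747 ranked 45. Since ctsc was chosen for this pattern, these ranks describe it and are not a test.

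The 2 ctsc probes stood on the same side of 0 on 7 of 7 arrays. The choice of ctsc fixed that side on every array of 30 and 48 hpf. Only the 24 hpf arrays were free to differ, and there A_15_P110747 lay near 0 (0.08 and 0.10). Their size differed from array to array, with A_15_P115439 minus A_15_P110747 running from -1.56 on replicate 2 at 48 hpf to 0.76 on replicate 1 at 24 hpf. Averaged over both probes, ctsc stood at 0.43 ± 0.06 at 24 hpf (SD, n = 2), 2.57 ± 0.43 at 30 hpf (SD, n = 2) and -2.28 ± 0.55 at 48 hpf (SD, n = 3).

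The names of the arrays carry 1 of 2 codes, whose meaning the sources do not give. The first code held both 30 hpf arrays and replicate 1 of 24 hpf, and the second held all 48 hpf arrays and replicate 2 of 24 hpf. Within the first code the 30 hpf mean lay above the 24 hpf array by 2.96 for A_15_P110747 and 1.25 for A_15_P115439. Within the second code, 48 hpf minus 24 hpf was -2.02 and -3.31. With the code as a block in the fit, 48 minus 30 hpf was -4.98 and -4.56, against -4.96 and -4.74 without it, a comparison carried by 1 array of 24 hpf under each code.

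Of all 43663 probes, 78 were at least 1.5-fold higher on both 30 hpf arrays and at least 1.5-fold lower on all 48 hpf arrays (0.179%). They made up 8.54% of the 913 probes lower at 48 hpf. Of the 8 cathepsin probes lower at 48 hpf 4 stood above 0 on both 30 hpf arrays, and 3 of these, both ctsc probes and ctss2.1, by at least 1.5-fold. Of the 913 probes, 291 (31.9%) stood above 0 on both 30 hpf arrays. Read over the 273 probes lower at 48 hpf whose values were found on no other probe on the 5 arrays, 44 (16.1%) were at least 1.5-fold higher on both 30 hpf arrays. The ctsc probes were among them by the choice of the gene.

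**Figure D2:**
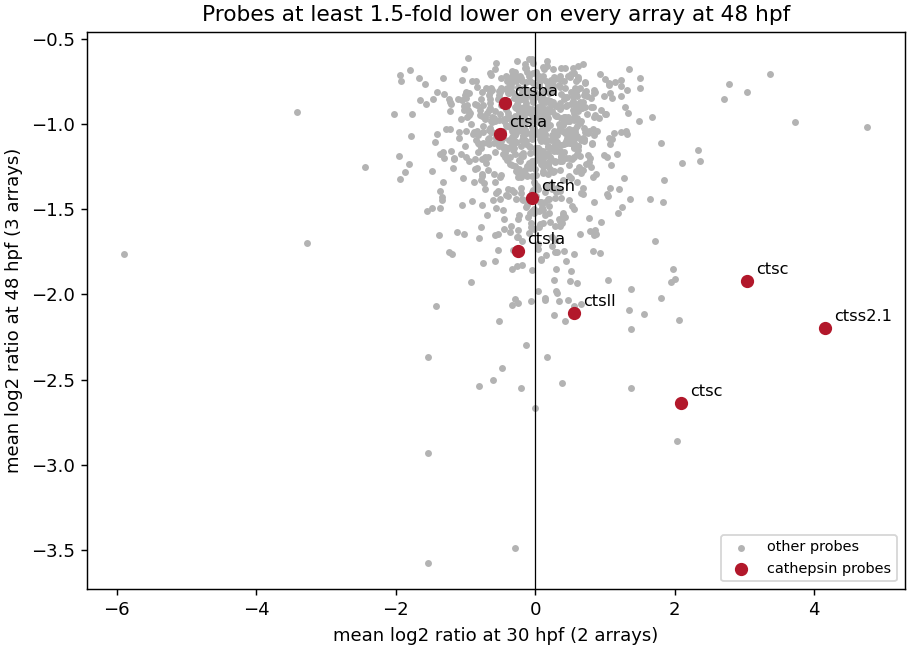
Mean log2 ratio at 48 hpf (3 arrays) against that at 30 hpf (2 arrays) for the 913 probes that all 48 hpf arrays put at least 1.5-fold lower, in grey, with the 8 cathepsin probes among them in red. The ctsc probes lie at 3.04 and 2.10 on the 30 hpf axis and ctss2.1 at 4.15, while ctsba, ctsh and ctsla lie at or below 0 there.

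The named probes whose profile over the 7 arrays was most like the mean of the ctsc probes were taken by Pearson correlation among 4276 named probes, all of them named through a list of lower probes. The 5 highest were mvb12bb (r = 0.99), lama1 (r = 0.99), odc1 (r = 0.99), ssr1 (r = 0.98) and zgc:92362 (r = 0.98), over 7 arrays that fall into 3 stages and 2 codes, so a high r largely says that the stages stand in the same order. All 5 were listed at 48 hpf. The product of lama1 is a laminin chain of basement membranes, odc1 encodes ornithine decarboxylase of polyamine synthesis, and ssr1 a subunit of the translocon-associated complex of the endoplasmic reticulum. Probe lama1 read 0.48 and -0.08 on the 24 hpf arrays, 0.98 and 1.5 on those of 30 hpf, and -1.41, -1.09 and -1.96 on those of 48 hpf. Probe odc1 read -0.12 and 0.11, then 0.81 and 0.75, then -1.29, -0.92 and -1.39. In each of the 5 the swing was smaller than in ctsc, with means of 0.78 to 1.24 at 30 hpf and -0.66 to -1.49 at 48 hpf. Among the other cathepsins the likeness to ctsc ran from r = 0.83 for ctsla A_15_P140851, at place 170 of 4276, to r = -0.82 for ctsa, at place 3918.

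The other cathepsins listed at 48 hpf were ctsba, ctsh, ctsla with 2 probes, ctsll and ctss2.1. All 8 probes of that list, ctsc included, were at least 1.5-fold lower on each of the 3 arrays, as the list requires, against 2.09% of all probes, a count that the choice fixed. Nearest to the limit was ctsla A_15_P103675, which read -0.61 on replicate 2. The probe of ctsd, named through the 24 hpf list, was past the limit on replicates 1 and 3 but read -0.04, close to no difference, on replicate 2. Cathepsins on none of the lists could not be named.

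**Figure D3:**
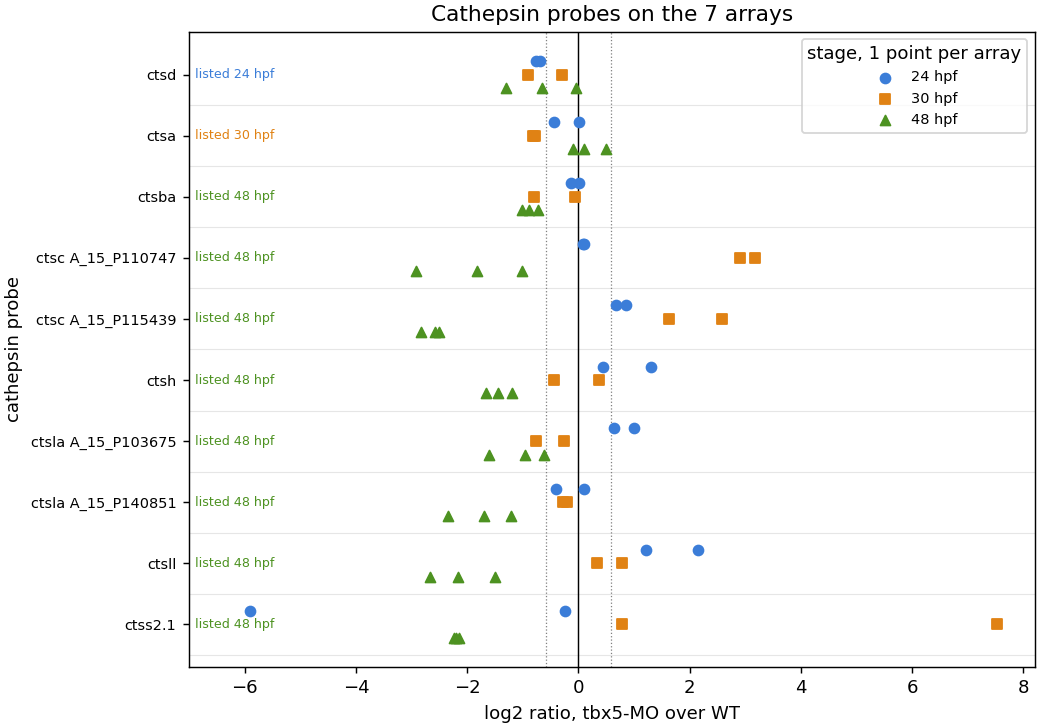
Log2 ratios (tbx5-MO over WT) of the 10 cathepsin probes, with 1 point per array, coloured by stage, and dotted lines at 1.5-fold in each direction. The words at the left give the stage whose list held the probe. All 8 probes listed at 48 hpf lie below the lower dotted line at 48 hpf, and ctsc, ctsll, the 30 hpf points of ctss2.1 and the 24 hpf points of ctsh and ctsla A_15_P103675 lie above 0 at an earlier stage.

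For these probes 24 and 30 hpf are stages the selection did not use. At 24 hpf 9 probes could be read so, ctsa and both ctsc probes among them. Of these 5 were above 0 on both arrays, 1 was below 0 on both, and 3 had their arrays on either side of 0. The 5 included both probes of ctsc, and the same share over all probes is not given here. By their means alone, 55.5% of the named probes not listed at 24 hpf were below 0. At least 1.5-fold higher on both arrays were 3 of the 9, ctsll, ctsla A_15_P103675 and ctsc A_15_P115439, against 6.77% of all probes and 99 of 2183 named probes not listed at that stage. None of the 9 could be lower by that much on both arrays, since the probe that was, ctsd, is read below as listed there. The median of the 9 means was 0.09, that of all probes -0.01 and that of the 2183 named probes -0.08. None passed the test at 24 hpf, which called 14 of 43663 probes (0.0321%). Only 1 of the 9, ctsll, had an unadjusted limma p under 0.05, as had 5392 of the 43663 probes.

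At 30 hpf 7 probes could be read, ctsc and ctsa being left out. Of these 2 were above 0 on both arrays, 4 below 0 on both and 1 on either side. The same shares over all probes are not given here. By their means alone, 52.5% of the named probes not listed at 30 hpf were below 0. The median of the 7 means was -0.24, against -0.01 over all probes. At least 1.5-fold higher on both arrays was 1 of the 7, ctss2.1, against 6.04% of all probes and 125 of 2424 named probes not listed there, and leaving out the listed ctsa kept the low end out of the 7. The test at 30 hpf called 3 of 43663 probes (0.00687%), none of them a cathepsin read there. Only 1 of the 7, ctss2.1, had an unadjusted limma p under 0.05, as had 3677 of the 43663 probes. Over the 18 readings that the selection did not use, at the 3 stages, none passed under any of the alternative settings, in which the lowest adjusted p of a reading lay between 0.0533 and 0.896.

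Cathepsin L is an endopeptidase, and ctsll is named as cathepsin L, like. It had the widest span after ctsc and ctss2.1. It read 1.22 and 2.16 on the 24 hpf arrays, 0.78 and 0.33 on those of 30 hpf, and -1.5, -2.66 and -2.17 on those of 48 hpf. All 4 values of the earlier stages were above 0 and the 3 of 48 hpf below it, with no overlap between the stages. The list fixed its side at 48 hpf, and the share of all probes without such overlap is not given here. The mean was 1.69 ± 0.66 at 24 hpf (SD, n = 2, limma adjusted p = 0.331, unadjusted p = 0.00576), which did not pass. At 30 hpf it was 0.56 ± 0.32 (SD, n = 2, limma adjusted p = 0.796). With the test limited to probes sharing each value with few others (at most 10 probes per value and array), the adjusted p at 24 hpf was 0.0533, the lowest it took in any alternative, and the highest was 0.854. The mean at 48 hpf, which selected the probe, was -2.11 ± 0.58 (SD, n = 3).

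The gene ctsla encodes a cathepsin L, listed under its older symbol ctsl1a. Its probes A_15_P103675 and A_15_P140851 start 180 bases apart on chromosome 5. The former read 0.64 and 0.99 on the 24 hpf arrays, -0.25 and -0.76 on those of 30 hpf, and -1.61, -0.61 and -0.96 on those of 48 hpf. The latter read 0.09 and -0.40, then -0.21 and -0.27, then -2.34, -1.21 and -1.70. The probes stood on the same side of 0 on 6 of 7 arrays. The exception was replicate 2 at 24 hpf, where A_15_P140851 minus A_15_P103675 was -1.39. The list fixed the side of both at 48 hpf, so only the arrays of 24 and 30 hpf were free to differ. The 24 hpf mean was 0.82 ± 0.25 (SD, n = 2, limma adjusted p = 0.449) on the former and -0.15 ± 0.35 (SD, n = 2, limma adjusted p = 0.921) on the latter. At 30 hpf both means were below 0, -0.51 ± 0.36 (SD, n = 2, limma adjusted p = 0.793) and -0.24 ± 0.04 (SD, n = 2, limma adjusted p = 0.934). Neither passed. The 48 hpf means were -1.06 ± 0.51 and -1.75 ± 0.57 (SD, n = 3).

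Cathepsin H, from ctsh, acts as an aminopeptidase. Its probe read 0.43 and 1.31 on the 24 hpf arrays, 0.37 and -0.44 on those of 30 hpf, and -1.66, -1.20 and -1.45 on those of 48 hpf. It was above 0 on both arrays at 24 hpf, on both sides at 30 hpf and lowest at 48 hpf. The means were 0.87 ± 0.62 at 24 hpf (SD, n = 2, limma adjusted p = 0.432), -0.04 ± 0.57 at 30 hpf (SD, n = 2, limma adjusted p = 0.993) and -1.44 ± 0.23 at 48 hpf (SD, n = 3). The 30 hpf mean turned to 0.37 without replicate 2 of that stage, and to 0.40 with the array code as a block.

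Cathepsin B cleaves proteins both internally and from the carboxyl end, and its gene ctsba varied least among those listed at 48 hpf. It read 0.01 and -0.14 on the 24 hpf arrays, -0.07 and -0.79 on those of 30 hpf, and -0.74, -1.01 and -0.89 on those of 48 hpf. The 24 hpf values were near 0 and those of 30 hpf spread towards the 48 hpf range, which replicate 2 reached. The means were -0.06 ± 0.10 (SD, n = 2, limma adjusted p = 0.966), -0.43 ± 0.51 (SD, n = 2, limma adjusted p = 0.816) and -0.88 ± 0.14 (SD, n = 3).

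The probe of ctss2.1, a cathepsin S gene listed under the older symbol ctssb.1, held the extreme values of the group. It read -0.24 and -5.91 on the 24 hpf arrays, 7.53 and 0.78 on those of 30 hpf, and -2.15, -2.23 and -2.21 on those of 48 hpf. The arrays of 24 and 30 hpf differed by several log2 units within a stage, whereas those of 48 hpf nearly coincided. The mean was -3.08 ± 4.01 at 24 hpf (SD, n = 2, limma adjusted p = 0.50) and 4.15 ± 4.78 at 30 hpf (SD, n = 2, limma adjusted p = 0.582, unadjusted p = 0.0418), neither of which passed. Without replicate 2 the 24 hpf mean was -0.24, and without replicate 1 the 30 hpf mean was 0.78. The difference of 48 minus 30 hpf was -6.35, and -0.68 with the array code as a block. That block also turned the 48 hpf mean from -2.20 to 0.64, although the 3 arrays read alike, since it takes replicate 2 of 24 hpf to set the level of the second code. On replicate 2 of 24 hpf, where ctss2.1 read -5.91, the hatching enzyme genes he1.2 and he1.1 read -5.69 and -2.98, against -0.24 and -0.42 on replicate 1; their part in the ctss2.1 value was not tested.

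The same block widened the difference of 48 minus 30 hpf for ctsll from -2.67 to -3.61 and for ctsh from -1.40 to -2.27. For ctsla it moved from -0.55 to -0.91 on A_15_P103675 and from -1.51 to -1.01 on A_15_P140851, and for ctsba from -0.45 to -0.30. The direction held for each of these, and the part of the code was not tested further.

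The 2 remaining cathepsins, not of the cysteine type, were listed at earlier stages. Cathepsin D is the main aspartic protease of lysosomes, and its gene ctsd was listed at 24 hpf, where 7.71% of all probes were at least 1.5-fold lower on both arrays. It read -0.75 and -0.70 on the 24 hpf arrays, -0.30 and -0.91 on those of 30 hpf, and -1.30, -0.04 and -0.66 on those of 48 hpf. All 7 values were below 0, the only cathepsin probe of which this was true, and the stages overlapped throughout. The mean was -0.73 ± 0.04 at 24 hpf (SD, n = 2), -0.60 ± 0.43 at 30 hpf (SD, n = 2, limma adjusted p = 0.760) and -0.67 ± 0.63 at 48 hpf (SD, n = 3, limma adjusted p = 0.834). The test at 48 hpf called no probe (0.0% of 43663), while 2548 had an unadjusted p under 0.05. The difference of 48 minus 30 hpf, which could be tested for ctsd alone since neither stage chose it, was -0.07 with an SE of 0.54 (limma adjusted p = 0.987). That test also called no probe (0.0%), while 3262 had an unadjusted p under 0.05.

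Cathepsin A is a serine carboxypeptidase that in mammals also protects other lysosomal enzymes. Its gene ctsa, listed as zgc:65802 at 30 hpf, where 6.75% of all probes were at least 1.5-fold lower on both arrays, read -0.44 and 0.01 on the 24 hpf arrays, -0.81 and -0.78 on those of 30 hpf, and 0.10, 0.50 and -0.09 on those of 48 hpf. It was below 0 on both arrays at 30 hpf only. Its 48 hpf mean was above 0, though with the array code as a block that mean was -0.06. Of the other cathepsin probes chosen by symbol, only ctsd, below 0 there, had its side at 48 hpf not fixed by the choice. The means were -0.21 ± 0.32 (SD, n = 2, limma adjusted p = 0.865), -0.80 ± 0.02 (SD, n = 2) and 0.17 ± 0.31 (SD, n = 3, limma adjusted p = 0.982). Each of its values was shared by 7 to 116 probes of the array, the most of any cathepsin. It was left out when only probes with few repeats (at most 10 probes per value) were used, as was ctsc A_15_P110747.

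Another 4 listed probes were named after cathepsins in their descriptions or synonyms only and stood outside the choice by symbol. Probe A_15_P103689, described as part of cathepsin B and lying on chromosome 17 like ctsba, read -0.01 and -1.94 on the 24 hpf arrays, 0.25 and -0.32 on those of 30 hpf, and -0.67, -1.04 and -0.86 on those of 48 hpf. Probe A_15_P106744, for zgc:55862, a symbol now held as a synonym of ctsba, was listed at 30 hpf and read 0.07 and 0.51, then -0.77 and -0.74, then -1.37, 0.08 and -0.55. Its side at 30 hpf, where ctsba was below 0 too, was fixed by its list. On replicate 2 of 24 and 48 hpf it was above 0, while ctsba read -0.14 and -1.01. On the remaining arrays of those stages both stood on the same side of 0. The probes described as similar to cathepsin A and cathepsin Z were listed at 24 and 30 hpf, and neither was at least 1.5-fold lower on all arrays of another stage. At 48 hpf the former read -1.32, -0.26 and -0.68, and the latter 0.26, 0.39 and 1.35. Of 18 cathepsin symbols in the reference gene table, 10 had no listed probe and are not analysed here.

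By the annotation terms in the lists, 12 of the 916 probes lower at 48 hpf carried cysteine-type peptidase activity, 8 of them the cathepsins. It was carried by 7 of 3372 at 24 hpf and 13 of 2951 at 30 hpf, none of them a cathepsin chosen by symbol. Among the carriers at 30 hpf was zgc:55862, the symbol held as a synonym of ctsba. The term proteolysis was carried by 27 probes at 48 hpf, 38 at 24 hpf and 28 at 30 hpf, which is 2.95%, 1.13% and 0.949% of each list. In the same order 8, 1 and 1 of them were cathepsins chosen by symbol, and 19, 37 and 27 were other probes. These counts rest on the values that made the lists.

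Genes around the cathepsins were read from 6 gene lists, each only at stages whose list did not hold the probe. Counts above 0 in these lists go by the mean of a probe at the stage. No probe of any of the 6 lists passed the limma test in either direction at such a stage, in 97 readings (tfa counted in both its lists). Of these readings 9 had an unadjusted limma p under 0.05, as had 5392, 3677 and 2548 of all 43663 probes at 24, 30 and 48 hpf. The probes of the 6 lists bear a name only because they were lower at another stage. All named probes read in the same way had medians of -0.08 at 24 hpf, -0.04 at 30 hpf and -0.05 at 48 hpf.

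Of 127 other lysosomal genes, 23 were named, with 25 probes. At 24 hpf 6 of 11 probes were above 0 (median 0.00), at 30 hpf 8 of 18 (median -0.02) and at 48 hpf 10 of 19 (median 0.01). Left out of these medians as listed at the stage were 14, 7 and 6 of the 25 probes, among them atp6v0b, another pump subunit, at -2.23 and cpvl at -1.74 at 24 hpf. Among the probes read, the largest means with 1 sign on every array were those of atp6v0cb, also of the proton pump that acidifies lysosomes, at 48 hpf (7.77, 0.23 and 1.34), of lipf, a lipase, at 30 hpf (-0.45 and -4.78), and of the carboxypeptidase gene cpvl at 30 hpf (3.70 and 0.00). Each mean was largely set by 1 array, though atp6v0cb also read 1.34 on replicate 3. Its 7.77 on replicate 1 was a value held by 22 probes.

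Of the 23 genes on the list of cystatins and other inhibitors, 2 were named, the fetuin genes ahsg1 and ahsg2. They belong to the cystatin superfamily, and whether they inhibit cathepsins was not tested. At 24 hpf ahsg1 read 1.13 and 0.30, and at 48 hpf ahsg2 read -0.68, -0.35 and -2.58. At 30 hpf 1 was above 0 and 1 below, with a median of -0.01. The single probes gave medians of 0.72 at 24 hpf and -1.20 at 48 hpf. The cystatins proper were not named.

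Macrophages and microglia were represented by 3 of 23 markers. At 24 hpf lcp1 and cxcr3.2 were listed, with means of -1.32 and -1.98, and only apoeb could be read (0.81). At 30 hpf all 3 could be read, 2 of them above 0 (median 0.57), and with probes of repeated values left out only apoeb remained (-0.37). At 48 hpf apoeb was listed (-1.10), and the other 2 were above 0 (median 0.54). The gene apoeb, an apolipoprotein rich in microglia and also in the yolk layer, read 0.55 and 1.07 on the 24 hpf arrays, -0.43 and -0.31 on those of 30 hpf, and -1.11, -0.68 and -1.5 on those of 48 hpf, where it was listed. Probe cxcr3.2, a chemokine receptor of macrophages, read 0.17, 0.40 and 1.36 at 48 hpf. Neutrophils were represented by 3 of 10 markers. Over probes not listed at the stage, the median was -0.01 at 24 hpf (1 of 2 above 0). It was -0.57 at 30 hpf (1 of 4) and -0.31 at 48 hpf (0 of 2). Left out as listed at 24 hpf were mmp13a A_15_P209266 (mean -0.93) and il1b (-0.85). Those left out at 48 hpf were mmp9 (-1.30) and mmp13a A_15_P104877 (-1.27). The metalloproteinase gene mmp9 read -0.57 and -0.60 at 30 hpf, another, mmp13a, read -0.83 and -0.26 there on A_15_P209266 but 1.06 and -0.34 on A_15_P104877, and the cytokine gene il1b read -1.15, -0.04 and -0.23 at 48 hpf. At 30 hpf, where ctsc was highest, the means of 2 of these 3 macrophage probes stood above 0 and those of 3 of the 4 neutrophil probes below. Probes lcp1 (0.65 ± 1.07, SD, n = 2), cxcr3.2, il1b and mmp13a A_15_P104877 had their arrays on both sides of 0 there. The macrophage probes with means above 0 were thus not above 0 on both arrays. Below 0 on both arrays were apoeb, mmp9 and mmp13a A_15_P209266. Of the named probes not listed at 30 hpf, 52.5% had means below 0. The neutrophil markers mpx and lyz were not among those named. No comparison of macrophage with neutrophil probes was run, and so few probes could not tell these cell types apart. The part of these probes in the ctsc values was not tested.

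The hatching gland was represented by 7 of 11 markers. At 24 hpf 0 of 4 were above 0 (median -1.36), at 30 hpf 2 of 5 (median -0.05) and at 48 hpf 3 of 5 (median 0.02). Left out of the 48 hpf median as listed there were he1.1 and he1.2, with means of -1.81 and -1.65. The hatching enzyme genes he1.2 and he1.1, both listed at 48 hpf, had the lowest 24 hpf means among the 4 markers not listed at that stage, -2.96 ± 3.86 and -1.70 ± 1.81 (SD, n = 2), each decided by replicate 2. The 3 listed at 24 hpf included he1.3, with a mean of -1.89. The transferrin gene tfa, which also stands in the yolk list, read -0.47 and -1.58 at 24 hpf.

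The yolk syncytial layer and its handling of lipoproteins were represented by 6 of 19 genes, with 9 probes. At 24 hpf 4 of 8 were above 0 (median -0.11), at 30 hpf 1 of 2 (median -0.25) and at 48 hpf 4 of 7 (median 0.09). Left out of the 48 hpf median as listed there were both probes of fabp1b.1, with means of -0.96 and -1.21. The fatty acid binding protein gene fabp1b.1 read -0.47 and -0.78 at 30 hpf, and rbp4, which encodes a retinol carrier, read -0.69, -0.76 and -0.37 at 48 hpf on A_15_P104141 but 0.10, -0.38 and 6.68 on A_15_P402680. At 30 hpf 7 of the 9 probes were on the list of lower probes, as were 1854 of all 4278 named probes (43.3%).

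**Figure D4:**
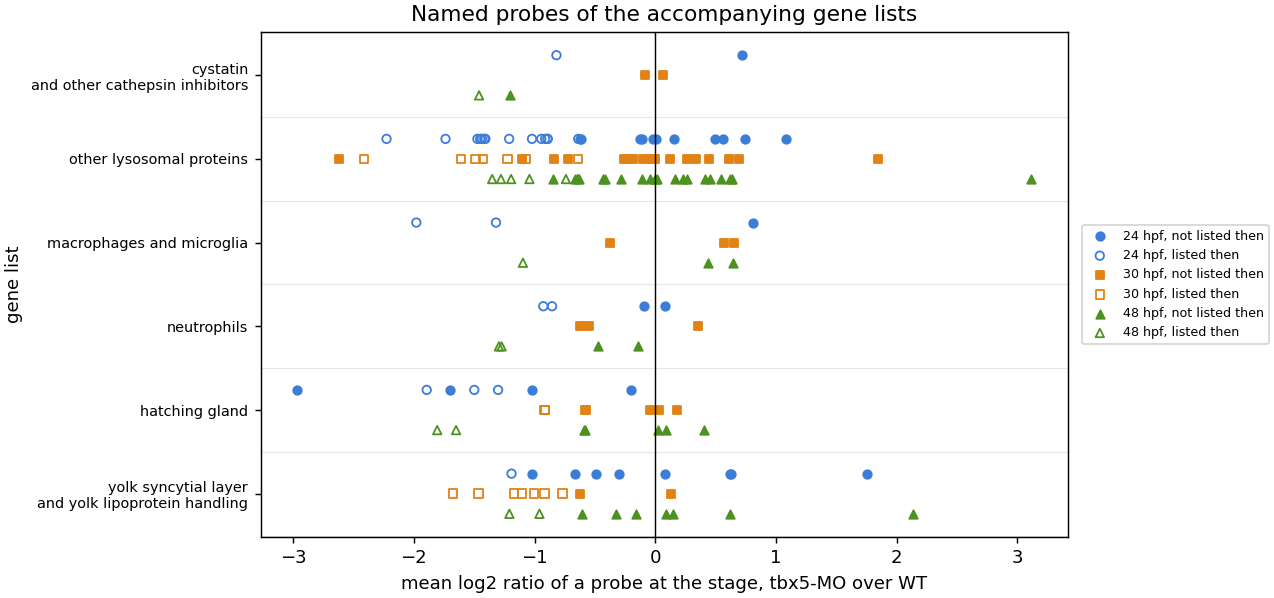
Mean log2 ratio (tbx5-MO over WT) of each named probe of the 6 gene lists at 24, 30 and 48 hpf, filled where the stage's list of lower probes did not hold the probe and open where it did. Filled points of the other lysosomal proteins lie on both sides of 0 at each stage, and those of the hatching gland lie below 0 at 24 hpf.

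The arrays had medians from -0.03 to 0.01 and standard deviations over probes from 0.77 to 1.49. Between 10.2% and 27.0% of the values of an array were found on 1 probe only, and 11.4% to 67.3% were shared by more than 10 probes. Since intensities were not used here, the signal of the cathepsin spots over background is unknown. Over all probes the correlation between 2 arrays lay between -0.03 and 0.14. Over the 1972 probes whose values were found on no other probe on any array, it was 0.69 for the 30 hpf arrays. There it was 0.69 to 0.71 for the 48 hpf arrays and 0.20 for the 24 hpf arrays. Over the same probes replicate 1 of 24 hpf correlated at 0.30 and 0.40 with the 30 hpf arrays, which share its code. Replicate 2 of 24 hpf correlated at -0.0916 to -0.175 with the 48 hpf arrays, which share its code. Between 30 and 48 hpf arrays the range was -0.28 to 0.02.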

How the data were processed

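Total RNA of whole embryos was labelled and hybridised by the authors to 2-colour Agilent zebrafish arrays, scanned with a GenePix scanner and analysed in GeneSpring GX. What the authors deposited were log2 ratios, 1 per probe and array, read here as Cy5 (tbx5-MO) over Cy3 (WT), and lists, 1 per stage, of the probes at least 1.5-fold lower on all its arrays. How ratios were normalized, whether dim spots were filtered, and the genome build are not stated in what was used here. The number of arrays limits the precision. Listed probes were placed in the value table by equal values on the arrays of their stage (6662 of 6740 on 1 row, 4278 of these with a gene symbol). Current symbols came by gene identifier from the RefSeq gene table of assembly GRCz12tu. One 24 hpf column of the list was assigned to replicate 2 by its group, its own number differing. Chromosome positions are those of the lists.

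Each probe was fitted with limma 3.58.1 (R 4.3.3) on all 7 arrays with 1 mean per stage, Benjamini-Hochberg adjusted over 43663 probes, at a threshold of 0.05, after testing on simulated data. Cathepsin tests were read only at stages that had not selected the probe. All cathepsin probes are named. Of each of the 6 companion lists, up to 3 genes are named, those with the largest mean of 1 sign on every array of a stage that did not list them, and the 5 probes most correlated with ctsc. The lists were cathepsin inhibitors, other lysosomal proteins, macrophages and microglia, neutrophils, hatching gland, and yolk syncytial layer. The members, lists and tests were chosen with earlier results of these data known. Alternatives were median centring, scaling to 1 median absolute deviation, each array left out, replicate number or array code as a block, each stage alone, robust moderation, averaged probes, limits on repeated values and a 2-fold limit. Left-out arrays for the counts of cathepsins, and blocks for their stage differences and the code block for their means, were added after seeing the data.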

Additional observations from a re-analysis of the deposited data

Results flagged for a closer look

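Cathepsin probes whose arrays all stood on one side of 0 at a stage and all on the other side at another are given here as values. None of these differences was tested. For ctsc the selection used both 30 and 48 hpf, and for the others it used 48 hpf, while the differences of 30 minus 24 hpf of ctsla and ctss2.1 used neither stage. Over all probes 10.5% stood so between 30 and 48 hpf, 8.16% between 24 and 48 hpf and 13.4% between 24 and 30 hpf, and among the 913 probes lower at 48 hpf, as these cathepsins were, the shares were 31.9%, 22.2% and 15.2%. For ctsc A_15_P110747 the difference was -4.96 for 48 minus 30 hpf and -2.01 for 48 minus 24 hpf. For ctsc A_15_P115439 it was -4.74 and -3.40. For ctsll it was -2.67 for 48 minus 30 hpf and -3.80 for 48 minus 24 hpf. For ctsh it was -2.31 for 48 minus 24 hpf. For ctsla A_15_P103675, where the other ctsla probe did not do so, it was -1.33 for 30 minus 24 hpf and -1.88 for 48 minus 24 hpf. For ctss2.1, whose 24 and 30 hpf means each rest on 1 array, it was 7.23 for 30 minus 24 hpf and -6.35 for 48 minus 30 hpf.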

How the results depend on the processing

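The calls over all probes depended on the settings, and none of them brought a cathepsin past the threshold at a stage that had not selected it. The 14, 3, 0 and 0 probes called at 24, 30 and 48 hpf and for 48 minus 30 hpf became 9 and 1 at 24 and 30 hpf after scaling, 0 and 0 with each stage alone, 2054, 332, 560 and 836 with the array code as a block, and 190, 10, 99 and 90 among 6963 probes with values found at most 10 times. The numbers of the arrays were not taken as pairs. Over all probes the deviations of same-numbered arrays of different stages correlated at -0.01 to 0.02. Arrays of 1 stage correlated at only 0.07 to 0.14 over these probes, so the check could miss a pairing. The replicate block called 0 at each stage and for the difference. With each array left out, the counts ran from 1 to 1570 at 24 hpf, 0 to 402 at 30 hpf and 0 to 300 for 48 minus 30 hpf, the highest at 24 hpf without its replicate 2 and the others without replicate 2 of 30 hpf, and stayed at 0 at 48 hpf. The cause was not tested.

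The 8 cathepsin probes at least 1.5-fold lower at 48 hpf became 6 at a 2-fold limit and 8 to 9 with 1 array left out. They became 7 among probes with values found at most 10 times. The 3 higher at 30 hpf became 2 at 2-fold, and also 2 among probes with values found at most 10 times. The probe that this limit on repeats took out of both counts was ctsc A_15_P110747. The 3 higher at 24 hpf became 1 at 2-fold, and the 1 lower at 24 hpf and the 1 lower at 30 hpf each became 0, the latter also among probes with values found at most 10 times. Without 1 array the lower counts were 1 to 2 at 24 hpf and 1 to 4 at 30 hpf. Of 220 alternative values of cathepsin means, 204 moved by less than the spread of arrays or kept their call, 8 moved further and 8 changed sign. With the array code as a block ctss2.1 at 48 hpf turned from -2.20 to 0.64, ctsh at 30 hpf to 0.40 and ctsa at 48 hpf to -0.056. The other 5 were means near 0, ctsa at 24 hpf (-0.44 to 0.013 with each array left out), ctsba at 24 hpf (-0.14 to 0.0093), ctsla A_15_P140851 at 24 hpf (-0.40 to 0.095), ctsh at 30 hpf (-0.44 to 0.37) and ctsc A_15_P110747 (-0.40 at 24 hpf with the replicate block). Of 47 values of list medians, 8 moved further than the arrays' spread, among them the hatching gland at 48 hpf, at -0.25 with repeated values left out.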
